A study of Mus musculus with 20 samples.

Results

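The introns described here carry a weak 5′ splice site beside a strong 3′ splice site in mouse erythroleukemia (MEL) cells. They were chosen by the deposited splice site scores alone, as introns with a 5′ score below 6 and a 3′ score of 6 or more, and 647 of the 6537 scored introns (9.90%) met that rule. They lie in 477 genes, of which 365 held 1 such intron and 112 held 2 or more. The comparison group was the 4949 introns in which both scores were 6 or more. A further 803 introns had only the 3′ score below 6 and 138 had both below 6.

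MEL cells are an erythroid line transformed by Friend virus that can be driven toward terminal erythroid differentiation with dimethyl sulfoxide (DMSO). Nascent RNA from chromatin of wild-type cells, depleted of ribosomal and polyadenylated RNA, was sequenced as long reads from uninduced cells and from cells grown for 5 days in 2% DMSO. Each state had 4 samples, which were 2 biological replicates each run on 2 instruments. The deposited tables hold 1 line per intron and state, so every value below comes from 1 pool of reads per state and has no replicate error. The other 12 samples of the series were not analysed here. Counting the most-read intron of each gene, all 10 erythroid markers had reads in at least 1 pool, 290 in sum before and 3310 after induction, with Slc4a1 at 0 before it, whereas 10 of 13 markers of other blood cells had none. The 3 with reads were the megakaryocyte genes Pf4, Itga2b and Gp9, at 58 reads in sum before and 161 after induction. Itga2b went from 17 to 156 reads, whereas Pf4 went from 40 to 5 and Gp9 from 1 to 0. The part of these 3 genes in the results was not tested. Over all introns the uninduced pool held 358493 spliced and 57886 unspliced reads, and the induced pool 240664 and 38707.

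A 5′ splice site is first recognised by base pairing with the U1 small nuclear RNA, which spans the end of the exon and the start of the intron, and U6 later takes its place at the intron side. Sites that pair poorly depend more on neighbouring sequence and on accessory proteins, and such introns are often spliced alternatively. A small class of introns starts with GC in place of GT. Another, the U12 type, is cut by a separate minor spliceosome that reads a different consensus, so a score built on the major class rates its sites as weak. The 9 bases below are the last 3 of the exon and the first 6 of the intron, with intron positions counted from 1 and exon positions from -1 backwards. Capitals mark an uncommon base, meaning one carried at that position by under 20% of the comparison introns. The first sequence is the commonest base at each position of the comparison group, borne by 45 of its introns at a score of 11. The next 4 are the sequences shared by most members, the following 3 are introns whose splicing differed between the pools, and the last 3 stand for the lowest score, the GC class and the U12 type.
comparison consensus: aaggtaagt
10 members, score 3.32: GaggCaagt
10 members, score 5.84: TGTgtgagt
6 members, score 3.24: aaggCaagt
6 members, score 5.99: caggtgaTG
Eef1a1 intron 6, score 5.49: caggtgaCA
Psmb6 intron 1, score 5.5: GGggtgagG
Rack1 intron 2, score 2.98: aaCgCaagt
Acly intron 5, score -19.62: aGAgtTGAG
Pkm intron 7, score 2.05: caggCaTgt
Pfdn5 intron 3, score -4.71: TCTgtaTCC

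Most of these sites had several bases that are uncommon in strong sites. The members' median score was 4.72, against 9.08 in the comparison group; 253 scored from 5 to 6, 181 from 4 to 5, 140 from 2 to 4, 47 from 0 to 2 and 26 below 0. They used 447 different 9-base sequences. An uncommon base stood at 3 positions in 49.0% of members, at 4 in 23.3% and at 2 in 22.4%. At position 5, where the comparison introns mostly have G, 41.3% of members had an uncommon base against 16.0% of comparison introns. Position -1, the last base of the exon, was uncommon in 34.5% against 17.4%, and position 3 in 17.3% against 3.70%. These shares restate the score, which is computed from the same letters, and are a description only.

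**Figure D1:**
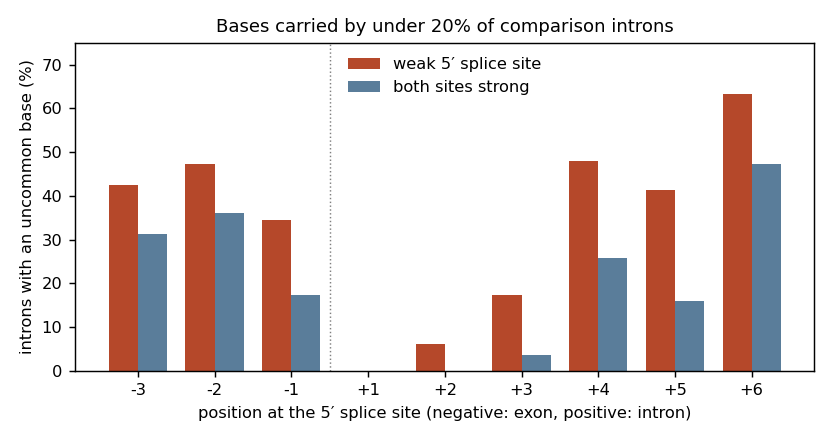
Share of introns (vertical axis, percent) with an uncommon base at each of the 9 positions of the 5′ splice site (horizontal axis), for the 647 introns with a weak 5′ site and the 4949 with both sites strong. The weak sites have the higher share at every position but the first base of the intron, where both shares are 0, and at position 5 they reach 41.3% against 16.0%.

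The members were shorter than the comparison introns and alike in GC content, with a few differences in annotation. Their median length was 850 nt against 1002 nt, and 623 nt against 845 nt among those with a line in the induced pool, and introns over 5000 nt made up 7.26% against 12.6%. Median GC content was 44.2% against 44.1%, and the median 3′ score, which the rule sets at 6 or more in both groups, was 8.89 against 9.16. Most lay between coding exons, 94.7% of members and 91.6% of comparison introns. An annotated transcript retained the intron in 13.9% of members against 9.86%. All annotated transcripts that span the intron used it in 63.1% against 67.8%.

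Co-transcriptional splicing efficiency (coSE) is the number of spliced reads divided by spliced plus unspliced reads of an intron. Most introns with a weak 5′ site were spliced in most nascent reads. In the uninduced pool 558 members had a line in the table of scores, with a mean coSE of 0.837 (SD between introns 0.225) and a median of 0.938, and 32.1% were spliced in every read. For the 4205 comparison introns the mean was 0.870, the median 0.944 and the share spliced in every read 31.8%. The lower mean came with a longer lower tail: coSE was below 0.5 in 58 members (10.4%) and in 6.25% of comparison introns. In the induced pool the mean was 0.818 (SD between introns 0.233) over 283 members and 0.871 over 2280 comparison introns, with medians of 0.923 and 0.947. Here 30.7% of members and 36.0% of comparison introns were spliced in every read, and 11.3% and 6.54% had a coSE below 0.5. Values of the groups overlap over nearly the whole scale. No test is given for these differences, since introns are not replicates of a state.

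The table of scores does not list each intron in each pool. Another 41 members (uninduced) and 124 members (induced) had 10 or more reads in the table of read counts without a line there. With them, the members' mean coSE was 0.833 over 599 introns and 0.841 over 407, against 0.869 and 0.875 in the comparison group. The induced mean is therefore not below the uninduced one once these introns are counted.

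**Figure D2:**
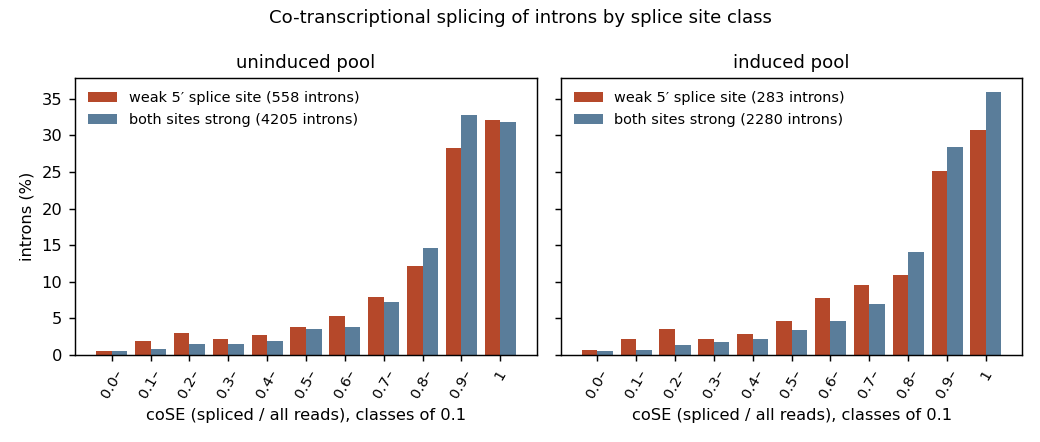
Share of introns (vertical axis, percent) by coSE in classes of 0.1, with introns spliced in every read as the last class (horizontal axis), in the uninduced pool (left) and the induced pool (right). In both groups most introns lie above 0.8, and the weak-site group has more introns in each class from 0.1 up to 0.8.

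The normalised intermediate count (NIC) is the number of reads ending as splicing intermediates divided by intermediates plus spliced reads. An intermediate is the product of the first step of splicing, in which the upstream exon has been cut free and awaits ligation. NIC was above 0 in 37.3% of members and 34.8% of comparison introns in the uninduced pool, and in 40.3% and 37.2% in the induced pool. The means were 0.0459 and 0.0383 in uninduced and 0.0544 and 0.0400 in induced cells. A NIC above 0.2 was found in 30 members (5.38%) against 3.57% of comparison introns before induction, and in 23 members (8.13%) against 3.90% after it.

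The gap in coSE lay mainly among short introns. Among introns of up to 500 nt, members of the uninduced pool averaged 0.712 and comparison introns 0.785, and after induction these means were 0.718 and 0.795. Over 500 nt they were 0.903 and 0.912, then 0.898 and 0.916. In the shortest class, up to 100 nt, 39 members averaged 0.678 and 310 comparison introns 0.773 in the uninduced pool. Over 1000 nt the uninduced members were not the lower group, at 0.917 against 0.905 in the class up to 2000 nt and 0.972 against 0.962 over 5000 nt. Within the members, coSE rose with length, at a Spearman correlation of 0.480 over 558 introns and 0.421 over 283, while its rank correlation with the 5′ score was 0.0505 and 0.0529. These are correlations across introns, which share libraries and genes.

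**Figure D3:**
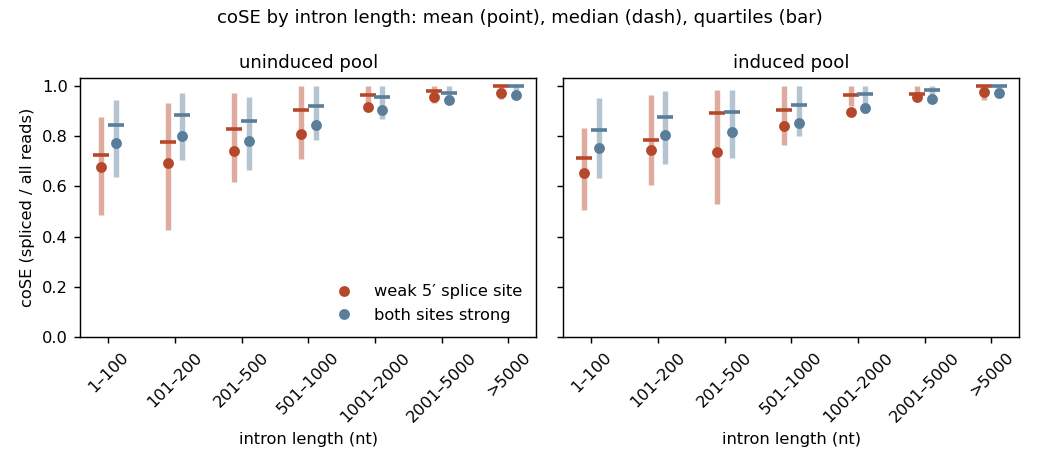
coSE (vertical axis) by intron length class in nt (horizontal axis) in the uninduced pool (left) and the induced pool (right); points are means over introns, dashes medians and bars the span from the lower to the upper quartile. Weak-site introns have the lower mean in each class up to 1000 nt in both pools, and in the uninduced pool the higher mean over 1000 nt.

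The annotation separated the short members further. Introns of up to 500 nt that some spanning transcript lacks had a mean coSE of 0.604 over 91 members and 0.736 over 550 comparison introns in the uninduced pool, and of 0.610 over 57 and 0.743 over 348 in the induced pool. Short introns used in all spanning transcripts were close together, at 0.811 and 0.818 in uninduced and 0.807 and 0.831 in induced cells. Members retained in an annotated transcript averaged 0.629 over 76 introns, against 0.722 over 435 comparison introns, before induction, and 0.634 against 0.705 after it.

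An annotated alternative 5′ site within 20 nt went with low coSE. Such a site was found for 18 members (2.78%) and 44 comparison introns (0.889%). In the uninduced pool 14 of these members averaged 0.556 (SD between introns 0.360) and 42 comparison introns 0.762, and in the induced pool 11 members averaged 0.539 and 23 comparison introns 0.842. The members were spread over nearly the whole scale. Prkcsh intron 1 (chr9:22003093-22003398, GRCm38, plus strand, 5′ UTR), in the gene for the β subunit of glucosidase II, has another 5′ site 4 nt away. Uninduced cells had 5 of 36 reads spliced and induced cells 9 of 39. Ctsa intron 4 (chr2:164834749-164834837, plus strand, between coding exons), in the gene for cathepsin A, has one 14 nt away and was spliced in 11 of 50 and 7 of 35 reads. Ppia intron 1 (chr11:6415980-6418100, plus strand), in the gene for cyclophilin A, has one 5 nt away and was spliced in 66 of 67 and 13 of 14 reads. How reads joined at the neighbouring site were counted is not stated, and its part in these values was not tested.

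Across the classes of score mean coSE did not rise steadily. It was, before induction, 0.862 below a score of 0 (22 introns), 0.802 from 0 to 2, 0.795 from 2 to 4, 0.866 from 4 to 5 and 0.844 from 5 to 6, and then 0.841 from 6 to 7 and 0.864 from 7 to 8 in the comparison group. The class below 0 includes U12-type introns, whose sites the score rates as weak. These were Eif3i intron 3, Pfdn5 intron 3 and Sptssa intron 1 at 1, Nedd1 intron 2 at 0.9375 and Ubl5 intron 4 at 0.867. Their part in the mean of that class was not tested. In the induced pool the lowest mean, 0.738, was that of the 23 introns from 0 to 2, which also had the highest mean NIC, 0.116. These means rest on few introns: without Hnrnpk intron 14 (2 intermediates of 3 reads), Ccdc189 intron 3 (1 of 3) and Dnmt1 intron 10 (6 of 14) they were 0.794 and 0.0617. Just inside the threshold, from 5.5 to 6, mean coSE was 0.853 over 124 members and just outside it, from 6 to 6.5, it was 0.839 over 158 introns. The same classes of the induced pool had 0.805 over 68 and 0.864 over 85 introns, so the members were the lower side there and the higher side in the uninduced pool. Closest below 6, at 5.99, were 8 members, whose coSE ranged from 0.231 to 1 in the uninduced pool (median 0.927). The deepest of them were Sf3b1 intron 3 with 52 of 52 reads spliced before and 23 of 24 after induction, Wdhd1 intron 4 with 43 of 43 and 8 of 8, and Dock2 intron 10 with 26 of 27 and 13 of 13, while the lowest was Upf1 intron 6 with 3 of 13 and 10 of 17. Among those closest above, at 6.02, were Pttg1 intron 4 with 27 of 27 uninduced reads spliced, Pkhd1l1 intron 33 with 15 of 16 and Upf3b intron 2 with 13 of 15.

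**Figure D4:**
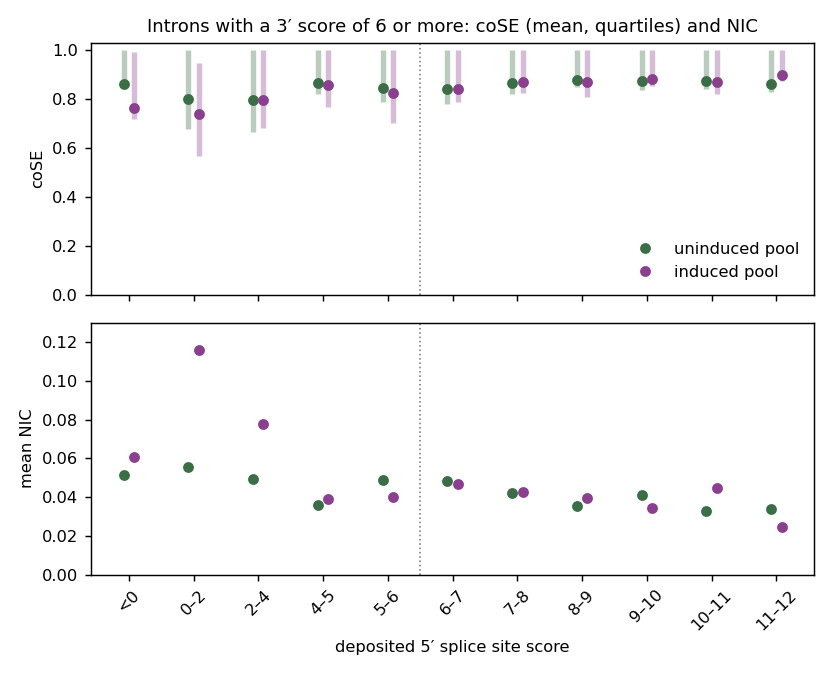
coSE (upper panel; points are means, bars run from the lower to the upper quartile) and mean NIC (lower panel) by class of 5′ splice site score (horizontal axis), for introns with a 3′ score of 6 or more in the 2 pools. The dotted line marks the score of 6; mean coSE stays between 0.738 and 0.897 in all classes, and mean NIC of the induced pool is 0.116 from 0 to 2, or 0.0617 without 3 introns of that class.

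Averaged by gene, coSE of the uninduced members was close to that of comparison introns in their own genes. The size depends on the measure. Over introns the uninduced difference was -0.0326, and as means of gene means, without matching within genes, it was -0.0121. Against the intron just upstream in the same gene it was -0.0314. Over 379 genes that held both kinds in the uninduced pool, the mean of the gene differences (member minus comparison) was -0.00757 and the median 0.0146. Of 2893 pairs the member was higher in 1166, lower in 1297 and equal in 430. In the induced pool, over 193 genes, the mean difference was -0.0419 and the median -0.00358, with the member higher in 589, lower in 793 and equal in 213 of 1595 pairs. NIC was higher in the member by a mean of 0.0132 within genes of the uninduced and 0.00487 within those of the induced pool.

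Some of the lowest scores belonged to introns that were spliced in all or nearly all reads. Acly intron 5 (chr11:100519169-100519614, minus strand, between coding exons), in the gene for ATP citrate lyase, had the lowest score, -19.62. Even so, 20 of 21 uninduced and 19 of 19 induced reads were spliced. Capza1 intron 5 (chr3:104834805-104839781, minus strand), in the gene for an actin-capping subunit, scored -17.98 and was spliced in 27 of 27 and 13 of 13 reads. Sptssa intron 1 (chr12:54646536-54656371, minus strand), in the gene for a small subunit of serine palmitoyltransferase, scored -6.16 and was spliced in 20 of 20 and 1 of 1. It is of the U12 type, whose sites a score built on the major class rates as weak.

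The same 9 bases did not carry the same splicing from gene to gene. The sequence TGTgtgagt was shared by 10 members, and in the uninduced pool coSE of the 8 with a line ranged from 0.100 to 1 with a median of 0.758. Rac2 intron 2 (chr15:78566032-78570731, minus strand) was spliced in 51 of 51 reads, and Lgals1 intron 1, in the gene for galectin 1, in 37 of 37. Gpr89 intron 4 (chr3:96892968-96893497, minus strand), in the gene for a Golgi pH regulator, was spliced in 2 of 20. It has another annotated 5′ site 19 nt away, whose part in this value was not tested. Mfsd2b intron 10 (chr12:4866269-4866448, minus strand), in the gene for the sphingosine-1-phosphate exporter of red cells, was spliced in 6 of 22 uninduced and 10 of 12 induced reads, at an adjusted p of 0.149 by Fisher's exact test. Its 95% Wilson intervals were 0.132 to 0.482 and 0.552 to 0.953. The 9 uninduced introns with GaggCaagt were more alike, from 0.625 to 1 with a median of 0.895.

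Introns that start with GC made up 40 of the members, out of 43 such introns with a score. No GC intron scored above 3.32, although 39 of the 40 had G at position -1, 38 had G at position 5, and 13 had no other uncommon base. Their mean coSE was 0.872 over 35 introns before and 0.863 over 21 after induction, beside 0.834 over 516 and 0.814 over 260 members that start with GT. Mean NIC was 0.0676 and 0.0818 against 0.0445 and 0.0524. The uninduced mean rests on Dnmt1 intron 10 and Smim5 intron 2: without them it was 0.0320, and the induced mean 0.0645. No high values were left out of the GT members, so these 2 means cannot be ranked against theirs. NIC was above 0 in 48.6% and 61.9% of GC members against 36.4% and 38.5% of GT members. Pkm intron 7 (chr9:59671726-59671920, plus strand), in the gene for pyruvate kinase of muscle type, was the deepest of them, spliced in 193 of 200 and 44 of 44 reads. Rps27a intron 3 (chr11:29546789-29547205, minus strand), in a ribosomal protein gene fused to ubiquitin, was spliced in 142 of 156 and 54 of 58. Narf intron 2 (chr11:121238518-121242500, plus strand) was spliced in 84 of 85 and 127 of 127.

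Members of the U12 type numbered 7, of 35 such introns with a score, and another 26 had both sites scored weak. Mean coSE of the 7 was 0.924 in the uninduced pool. Pfdn5 intron 3 (chr15:102326850-102328521, plus strand), in the gene for a prefoldin subunit, was spliced in 45 of 45 uninduced and 27 of 27 induced reads. Ubl5, which encodes a ubiquitin-like protein, held 2 members of this type. Its intron 2 (chr9:20645260-20645405, plus strand) was spliced in 38 of 49 and 30 of 38 reads, and its intron 4 (chr9:20645660-20646615, plus strand) in 26 of 30 and 18 of 20.

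At 20 or more reads and with a line in the table of scores, the lowest coSE of the uninduced pool were those of Gpr89 intron 4 and Dtx3 intron 2 (chr10:127194474-127194681, minus strand, 5′ UTR), each at 2 of 20 reads. Ampd2 intron 7 (chr3:108079327-108079586, minus strand), in the gene for an AMP deaminase, followed at 5 of 43, Prkcsh intron 1 at 5 of 36 and Gml2 intron 1 (chr15:74823310-74823993, plus strand, noncoding transcript) at 11 of 70. In the induced pool the lowest was Dpp7 intron 3 (chr2:25355722-25355813, minus strand), in the gene for a lysosomal dipeptidyl peptidase, at 1 of 25. Hnrnpk intron 14 (chr13:58393869-58394075, minus strand), in the gene for an RNA-binding protein, was spliced in 2 of 25 induced reads. In the uninduced pool, where it has no line in the table of scores, it had no spliced read among 30, which by the limit of 3 counts allows a coSE of up to 0.100. Mau2 intron 13 (chr8:70022670-70023613, minus strand), in the gene for a cohesin loader, likewise without a line there, had none among 25, which by the same limit allows up to 0.120, and 5 of 14 induced reads spliced. Clk1 intron 4 (chr1:58419734-58420120, minus strand), in the gene for a kinase of SR splicing factors, was at 3 of 20 induced and 4 of 14 uninduced reads. S100pbp intron 4 stood at 4 of 24 and Ccdc189 intron 3 at 5 of 28 induced reads. Several introns of this list have another annotated 5′ site nearby. It lies 4 nt away for Dpp7 intron 3, 3 nt for Mau2 intron 13 and 19 nt for Gpr89 intron 4. Prkcsh intron 1 has one too, as given above. How reads joined at these sites were counted is not stated, and their part in the low values and limits was not tested.

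Other members were spliced in every read at high depth. Map1lc3b intron 2 (chr8:121593546-121595985, plus strand), in the gene for the autophagosome protein LC3B, had 101 of 101 and 86 of 86 reads spliced. In the uninduced pool Pkhd1l1 intron 14 stood at 74 of 74 and Pgk1 intron 5, in the gene for phosphoglycerate kinase, at 68 of 68. In the induced pool Narf intron 2 had the most reads of those at 1, and Ssr3 intron 1, in the gene for a translocon-associated subunit, had 82 of 82.

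Among members with 20 or more reads of intermediates and spliced RNA, NIC was highest at the introns named here; shallower introns, such as Smim5 intron 2 with 8 intermediates of 13 uninduced reads, also had high values. Kel intron 8 (chr6:41698449-41698887, minus strand, between coding exons), in the gene for the Kell blood group endopeptidase, had 15 intermediates among 22 reads in each pool, a NIC of 0.682 (95% Wilson interval 0.473 to 0.836). Its coSE was also low, at 11 of 42 uninduced and 11 of 30 induced reads. Dnmt1 intron 10 (chr9:20930166-20932114, minus strand), a GC intron in the gene for the maintenance DNA methyltransferase, had 16 of 23 and 6 of 14, at intervals of 0.491 to 0.844 and 0.214 to 0.674. These intervals overlap, and the difference did not pass Fisher's exact test, at an unadjusted p of 0.169 and an adjusted p of 1. Nxf1 intron 8 (chr19:8764350-8764498, plus strand), in the gene for the mRNA export receptor, had 14 of 37 and 1 of 17. That difference did not pass the test, at an unadjusted p of 0.0207 and an adjusted p of 1 by Fisher's exact test. Alad intron 7 (chr4:62510924-62511523, minus strand), in the gene for the heme synthesis enzyme aminolevulinate dehydratase, had 14 of 48 in the induced pool.

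Between the pools, coSE of 359 members with 10 or more reads in each could be compared by Fisher's exact test, adjusted over the 4403 introns tested. The test compares 2 pools of libraries, not cultures. It called 3 members (0.836%), all lower in the induced pool, beside 1.61% of all introns called in either direction, 1.25% lower and 0.363% higher. A share of so few introns is not read as a difference from that background. Over the 359, coSE was higher in the induced pool in 160, lower in 129 and equal in 70, and the median difference was 0, as it was over all introns tested. At an unadjusted p under 0.05 there were 28 members (7.80%), beside 7.97% of all introns tested.

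The deepest of the 3 was Eef1a1 intron 6 (chr9:78479193-78479277, GRCm38, minus strand, between coding exons), in the gene for translation elongation factor 1A1. Before induction 406 of its 439 reads were spliced, giving 0.925 (95% Wilson interval 0.896 to 0.946). After induction 64 of 86 were spliced, giving 0.744 (0.643 to 0.825). The adjusted p by Fisher's exact test was 0.00176. Psmb6 intron 1 (chr11:70525496-70525884, plus strand, between coding exons), in the gene for a catalytic proteasome subunit, was spliced in 56 of 74 reads and then 18 of 46. Its coSE of 0.757 (0.648 to 0.840) fell to 0.391 (0.264 to 0.535), at an adjusted p of 0.0103 by the same test. Rack1 intron 2 (chr11:48801835-48802272, plus strand, between coding exons), a GC intron in the gene for a ribosome-bound scaffold protein, was spliced in 88 of 109 reads and then 11 of 26. Its coSE of 0.807 (0.723 to 0.870) fell to 0.423 (0.255 to 0.611), at an adjusted p of 0.0252 by the same test. Its NIC was 10 of 91 reads and then 5 of 14, which did not pass the test, at an unadjusted p of 0.0279 and an adjusted p of 1 by Fisher's exact test. In all 3 introns the intervals of the pools did not overlap. Without a minimum of reads only Eef1a1 intron 6 passed, and Psmb6 and Rack1 had adjusted p-values of 0.0935 and 0.220 by Fisher's exact test. With a minimum of 20 reads Eef2 intron 4 and Narf intron 9 passed too. Eef2 intron 4 (chr10:81178893-81179080, plus strand), in the gene for translation elongation factor 2, went from 139 of 158 to 44 of 64 reads. Narf intron 9 (chr11:121250431-121250759, plus strand) went the other way, from 27 of 33 to 53 of 53 reads.

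**Figure D5:**
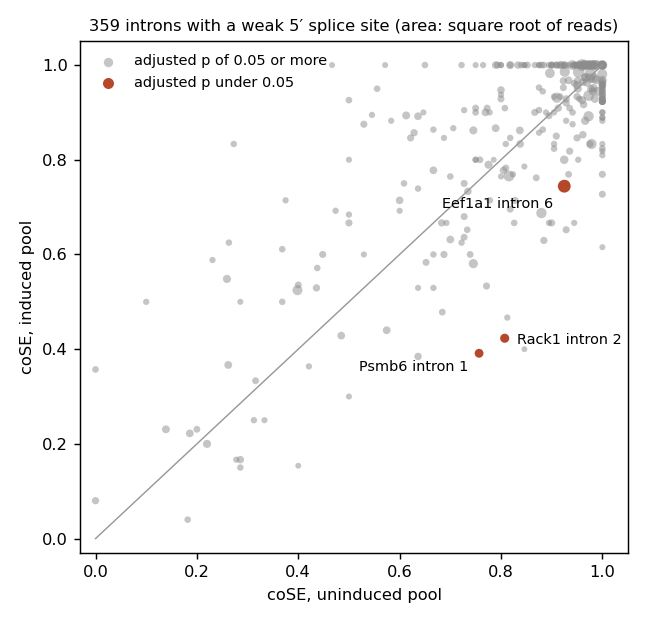
coSE in the uninduced pool (horizontal axis) and the induced pool (vertical axis) for the 359 members with 10 or more reads in each; the area of a point grows with the square root of its reads and the line marks equal values. The 3 named introns passed the test, and all lie below the line, while 160 members lie above it.

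NIC could be compared in 194 members, and Fisher's exact test called 0 of them, beside 0.0981% of the 2039 introns tested. At an unadjusted p under 0.05 there were 3 (1.55%), beside 1.67% of all introns tested, and a chi-square test also called 0. NIC was higher in the induced pool in 47, lower in 59 and equal in 88. At the members' median depth of 14 uninduced and 12 induced reads only large differences could be detected.

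Members were found in 8 of 9 groups of host genes chosen by symbol. Ribosomal protein genes held 15, against 251 comparison introns, and the members' median coSE was 0.973 uninduced and 0.962 induced, beside 0.963 and 0.947 in those comparison introns. Rpl14 intron 4 (chr9:120573676-120573763, plus strand), which encodes part of the large ribosomal subunit, was spliced in 289 of 296 and 99 of 101 reads. Translation factors held 21 members against 149, with a median of 0.963 over 19 introns before and 0.778 over 9 after induction; these are partly different introns, and the comparison introns of the group had 0.905 and 0.848. Splicing factors held 17 against 105, with medians of 0.846 and 0.889 and means of 0.813 over 15 and 0.675 over 12 partly different introns. Their comparison introns had medians of 0.857 and 0.917 and means of 0.787 and 0.812. The deepest member of chaperone genes was Cct5 intron 4 of a chaperonin subunit (chr15:31594527-31595644, minus strand) at 82 of 110 and 18 of 31 reads. That of DNA replication genes was Mcm7 intron 1 of a replicative helicase subunit at 30 of 33 and 22 of 22. In glycolysis and proteasome genes the deepest were Pkm intron 7 and Psmb6 intron 1, given above. Proteasome, chaperone, DNA replication and glycolysis genes held 8, 9, 5 and 4 members, and the 25 comparison introns of cytoskeletal genes had no member beside them. Of 57 members tested in the 9 groups, Eef1a1 intron 6 and Psmb6 intron 1 passed, both lower, beside the 1.61% of all introns called. How reads were shared with processed pseudogenes, which ribosomal protein genes, Eef1a1 and Rack1 have, is not stated.

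Erythroid genes held 18 members, in 5 genes, against 148 comparison introns, and 17 of the 18 had a line in the induced pool but 2 in the uninduced. Their mean coSE in the induced pool was 0.802, from 0.429 to 1, beside 0.875 in the comparison introns. Slc4a1, which encodes the band 3 anion exchanger of the red cell membrane, held 6 of them. Intron 10 (chr11:102356930-102357040, minus strand) was spliced in 43 of 44 induced reads, and intron 6 (chr11:102358528-102359009) in 28 of 31. Intron 12 (chr11:102356272-102356379) was spliced in 25 of 42 and intron 11 in 28 of 40. NIC was above 0 in all 6, from 0.0889 at intron 10 to 0.280 at intron 6, where 7 of 25 reads were intermediates. Over the erythroid genes together, NIC of the induced pool was above 0 in 10 of 17 members and in 98 of 146 comparison introns. None of the 6 Slc4a1 members had a line in the uninduced pool, so no comparison of the pools could be made. Ank1 intron 23, in the gene for erythroid ankyrin, had 61 of 61 induced reads spliced, whereas its intron 34 had 9 of 21.

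The gene with the most members was Pkhd1l1, which encodes a large fibrocystin-like membrane protein, with 7. In the uninduced pool their coSE ran from 0.750 at intron 39, with 12 of 16 reads, to 1 at intron 14, and intron 3 (chr15:44466423-44467338, plus strand) stood at 122 of 128 and 199 of 202 reads. Rad21, which encodes a cohesin subunit, held 5, in introns 6, 7, 9, 10 and 11. All were spliced in most reads of both pools, from 104 of 116 at intron 7 to 118 of 120 at intron 11 in the uninduced pool.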

How the data were processed

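The labels describe long-read sequencing of nascent RNA in 2 states of MEL cells, with 4 samples in each. Per the file headers, the authors gave counts of spliced and unspliced reads for each intron in 1 table, and in another counts of spliced reads and intermediates, NIC, a length, a GC content and 2 splice site scores. NIC is a deposited fraction that equals intermediates over intermediates plus spliced reads on each of 8576 lines. GC content is a deposited percent, taken as that of the intron. The splice site scores were deposited by the authors for 9 bases at the 5′ site and 23 at the 3′ site, and the scoring program is not given in the sources used here. Each table has 1 line per intron and state, taken as a pool of the 4 long-read samples of that state. The runs that make up a pool are not listed. The submitters' processing notes name cutadapt, minimap2, SAMtools, bedtools and Bowtie and the builds mm10 and dm3, without roles. Of the deposited columns with values per sample, 0 were left unused.

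The tables were joined by intron name and state. All 647 member positions were introns of the named transcript in GENCODE mouse release M21 (GRCm38), which gave gene, region, intron number along the named transcript and use in other transcripts. Coordinates are 1-based. coSE was computed as spliced over all reads. Lines used for the levels had 10 or more reads, and members had 10 to 439 reads (median 22) in the uninduced and 10 to 202 (median 22) in the induced pool. A count of 0 at the median depth allows a share of up to 13.6%. The 95% Wilson intervals and these limits cover counting error only, since PCR copies could not be told apart. Pools were compared per intron by two-sided Fisher's exact tests with Benjamini-Hochberg adjustment over all introns tested, at a threshold of 0.05. The procedure was tested on simulated data. Python 3.11.15, SciPy 1.17.1, pandas 2.3.3, NumPy 2.4.6 and matplotlib 3.10.9 were used.

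Members and lists were chosen with earlier results of these data known. Introns named in the text were those past the threshold between pools, the 5 lowest coSE and the 3 deepest at 1 in each pool at 20 or more reads, the 3 highest NIC in each pool at 20 or more reads of that table, the 3 lowest scores, the 3 deepest of each sequence class, the 3 closest to a score of 6 on either side (the deepest where scores tie), the 3 commonest sequences (4 with a tie), the deepest member of each host gene group and the genes with most members. The deepest member among erythroid genes is not reported here. Examples of a shared sequence, of a nearby alternative 5′ site, of 2 further introns passing at 20 reads, of Mau2, Smim5, Upf1 and Ank1 and within Slc4a1, Pkhd1l1 and Rad21, and the introns left out of a mean, were chosen after their values were seen. Alternatives tried were other read minimums, summaries, subsets of introns, comparison introns and a chi-square test.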

Additional observations from a re-analysis of the deposited data

How the results depend on the processing

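Under each alternative listed here mean coSE was lower and mean NIC higher in members than in comparison introns, but the size moved; narrower classes of score, length or position, given in the other paragraphs, do not all follow. For coSE the differences reported were -0.0326 (uninduced pool) and -0.0528 (induced pool). In that order, they were -0.00694 and -0.0243 as medians, -0.0381 and -0.0180 with reads added together, -0.0121 and -0.0319 as means of gene means, and -0.00757 and -0.0419 within genes. Members scoring below 4 gave -0.0654 and -0.0918. Introns of up to 500 nt gave -0.0734 and -0.0768, and longer ones -0.00926 and -0.0179. Introns in all annotated transcripts gave -0.00962 and -0.0299. The following were added after the data were seen: introns lacking from a transcript (-0.0625 and -0.0832), the intron just downstream as reference (-0.00734 and -0.0221), and leaving out introns with an alternative 5′ site within 20 nt (-0.0264 and -0.0418). A minimum of 20 reads gave -0.0204 in the uninduced pool. No minimum gave -0.0300 in the induced pool, and all introns with 10 or more counted reads, also added later, gave -0.0331.

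For NIC the reported differences were 0.00763 and 0.0144. They were 0.0160 and 0.00753 with 20 or more reads, 0.0109 and 0.00632 with reads added together, 0.0126 and 0.0454 for members scoring below 4, and 0.0132 and 0.00487 within genes. As a share of introns above 0 they were 0.0248 and 0.0305. Short introns gave 0.00769 in the induced pool. The causes of these shifts were not tested. Of the members, 3 of 359 passed between the pools in coSE (71 of all 4403 introns), 5 of 122 with 20 or more reads (68 of 1330), 1 of 626 without a minimum (36 of 42074), and 1 of 115 among members scoring below 4. The chi-square test also called 3. For NIC 0 passed under each setting run. Without a minimum the differences of Psmb6 intron 1 (-0.365) and Rack1 intron 2 (-0.384) no longer passed.

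No paired analysis was possible because replicates were merged in the deposited tables, and for the same reason neither a replicate block nor leaving out a replicate was run. Depth limits single introns: at 22 reads, the median, only large differences can be detected.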

Other observations

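Position in the gene separated NIC more than the strength of the 5′ site did. In first introns NIC averaged 0.00436 over 82 members and 0.00556 over 672 comparison introns of the uninduced pool. In internal introns it averaged 0.0530 over 446 members and 0.0449 over 3206 comparison introns. Beside the intron just upstream in the same gene, members had a coSE lower by a mean difference of -0.0314 over 456 uninduced pairs and -0.0561 over 241 induced pairs, against -0.00720 and -0.00162 for comparison introns. Members were lower than that neighbour in 46.9% of uninduced and 56.8% of induced pairs, and higher in 32.9% and 28.6%. For comparison introns these shares were 44.5% and 41.3% lower, and 37.2% and 35.7% higher. Beside the intron just downstream, members were lower in 39.8% and 42.2% and higher in 40.6% and 39.0%, and comparison introns lower in 38.7% and 35.1% and higher in 41.5% and 40.3%. In last introns the order of the groups turned between the pools: mean coSE was 0.761 over 30 members and 0.866 over 327 comparison introns before induction, and 0.864 over 8 and 0.783 over 133 after it, where mean NIC was 0.0486 and 0.0736.

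Of 16 genes whose products act at the 5′ splice site, 5 had introns with 10 or more reads in both pools, and 0 of their 20 introns passed Fisher's exact test in either direction, beside 1.61% of all introns tested. They held 4 members. Snrnp70 intron 4, in the gene for the U1-70K protein, was spliced in 12 of 15 uninduced and 15 of 16 induced reads. Hnrnph1 intron 12 had 4 of 10 and 2 of 13 reads spliced and intron 11 had 5 of 16 and 4 of 16, while Hnrnpa1 intron 6 had 17 of 23 and 12 of 20.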
